A study of Mus musculus with 8 samples.

Results

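The Notch pathway was followed in fibroblasts of the healing mouse heart through 9 genes: the receptors Notch1, Notch2, Notch3 and Notch4, the ligand Jag1, and the target genes Hes1, Hey1, Hey2 and Heyl. They were taken by name, each matching 1 row among the 54532 genes of the deposited table, and 8 of the 9 were expressed highly enough to be tested. The cells were cardiac fibroblasts sorted by their surface PDGFRα, the platelet-derived growth factor receptor found on fibroblasts, from infarcts 7 days after a coronary artery was occluded. In the 4 FTbR2KO samples the TGF-β type 2 receptor TbR2, the product of Tgfbr2, was to be lost from fibroblasts after tamoxifen. The 4 TbR2fl/fl control samples carried the floxed gene and had also received tamoxifen. Titles number the samples 1 to 4 and 5 to 8. The Cre driver, the age and sex of the mice, and whether each sample was 1 animal are not stated in the labels or the table. Each p-value thus sets a difference or relation against the variation among these samples, which may not be that among animals.

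Notch receptors are membrane proteins that are switched on by a ligand, Jagged or Delta, on a touching cell. Ligand binding lets ADAM proteases and then γ-secretase cut the receptor, and the freed inner part joins the DNA-binding protein RBPJ in the nucleus and turns on genes of the Hes and Hey families, which encode repressors of transcription. In the heart the pathway is known for valve and vessel development, and Notch3 is known as the receptor of pericytes and smooth muscle, the mural cells of vessels. Notch4 is known mainly from endothelium.

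Notch3 and Hey2 were the pair of listed genes closest in rank order over the libraries, as described further on, and their promoters are shown for that reason. Promoters of 250 bases before to 50 bases after the start site, from RefSeq on build GRCm38.p6, were at hand for 6 of the 9 genes (Notch1, Notch2, Notch3, Notch4, Jag1 and Hey2). They were searched on both strands for TGGGAA, the core letters that RBPJ is known to bind, and for CACNAG, the N-box known to be bound by Hes proteins. Both lines run 5′ to 3′ on the minus strand of the chromosome, Hey2 at chr10:30842734-30843033 and Notch3 at chr17:32166841-32167140. Capitals mark TGGGAA (or TTCCCA on the other strand) in the Hey2 line and CACNAG (or CTNGTG) in the Notch3 line.
Hey2: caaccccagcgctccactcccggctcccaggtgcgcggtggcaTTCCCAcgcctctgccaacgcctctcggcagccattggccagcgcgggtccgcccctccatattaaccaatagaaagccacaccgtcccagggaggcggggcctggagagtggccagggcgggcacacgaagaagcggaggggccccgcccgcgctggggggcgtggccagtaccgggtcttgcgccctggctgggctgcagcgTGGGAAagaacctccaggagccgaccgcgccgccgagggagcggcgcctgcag
Notch3: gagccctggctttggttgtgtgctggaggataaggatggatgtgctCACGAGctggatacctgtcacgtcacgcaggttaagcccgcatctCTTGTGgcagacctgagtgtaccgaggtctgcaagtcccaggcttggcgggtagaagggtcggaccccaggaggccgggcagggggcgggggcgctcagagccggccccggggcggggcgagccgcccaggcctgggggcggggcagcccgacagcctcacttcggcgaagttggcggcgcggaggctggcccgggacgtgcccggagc
The Hey2 promoter held 2 core matches, starting 207 and 3 bases before the start site, and both were part of the longer form GTGGGAA. The core was present in 25.6% of the 32851 promoters of this length, the longer form in 6.38% and at least 2 longer forms in 0.256%. The last share was counted for this form alone, at the number of matches that Hey2 holds, and is not a test. Hey2 was the only target gene with a promoter at hand. None of the other 5 promoters held the core. The Notch3 promoter held 2 N-boxes, which 42.5% of all promoters had at least once, and the Notch2 promoter held 1. The Notch1 promoter held 3 matches, starting 108, 3 and 1 bases before the start site. Those at 3 and 1 overlap, being 1 stretch read on both strands. This Notch1 promoter lies 12841 bases from the gene start in the deposited data. The promoters of Notch4, Jag1 and Hey2 held none. These are matches of letters and not measured binding sites.

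The targeted gene, Tgfbr2, measured 58.2 ± 1.30 FPKM (sequenced fragments scaled to gene length and library depth) in the libraries labelled FTbR2KO and 45.5 ± 3.86 FPKM in the controls (SD, n = 4 each). Its level was thus higher in every library labelled FTbR2KO, against the label (exact permutation p = 0.0286, the smallest this design allows, but limma adjusted p = 0.571). The value covers the whole gene and cannot show whether an exon was deleted. Directions below therefore refer to the libraries as labelled. Depth was 16088616 to 22928496 recovered reads per FTbR2KO-labelled library, with 21200735 to 28731923 in the controls. The fibroblast label was borne out by its markers: Pdgfra lay at 45.5 to 85.6 FPKM and all 8 genes of the fibroblast list were well expressed, led by Col1a1 (3496 to 5338 FPKM), Col1a2 (1337 to 1998 FPKM) and Postn (941 to 1559 FPKM). The list summed to 8638 ± 727 FPKM under the FTbR2KO label and 9877 ± 365 FPKM in the controls (exact permutation p = 0.0571), a difference of -0.19 on the log2 scale that was -0.033 as TPM (exact permutation p = 0.771). Col1a1 (3934 and 5005 FPKM) and Col1a2 (1553 and 1898 FPKM) had lower means under the FTbR2KO label, with their groups apart. In limma neither passed (adjusted p = 0.571 and 0.581). Means of Dcn (865 and 784 FPKM) and Postn (1317 and 1260 FPKM) were higher under that label. So were those of Lum (723 and 690 FPKM) and Pdgfra (65.9 and 57.6 FPKM), all with overlapping groups. Tcf21 (66.3 and 67.7 FPKM) and Pdgfrb (114 and 114 FPKM) hardly differed.

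Notch3 was the most abundant receptor and Heyl and Hes1 the most abundant targets, in both genotypes, and the level of no listed gene was shown to differ between genotypes. FPKM is scaled to gene length, so levels may be set beside each other, but only roughly. The length used for Notch1, 14232 bases, equals the union of exons over its 11 transcripts in GENCODE M21. Where the transcripts present are shorter than such a union, the level is understated, and transcripts were not resolved. Ranks, shares and orders of genes below carry this limit. Averaged over the 8 libraries, Heyl lay above 93.0% of all tested genes, Hes1 above 91.9%, Notch3 above 87.0%, Jag1 above 81.2% and Notch2 above 78.7%. Notch1, Notch4 and Hey1 were in the middle of the range, above 44.8%, 43.5% and 39.9% of tested genes. Hey2 stayed under 1 FPKM in every library. In bulk RNA, fewer cells of a type and less RNA per cell cannot be told apart.

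**Figure D1:**
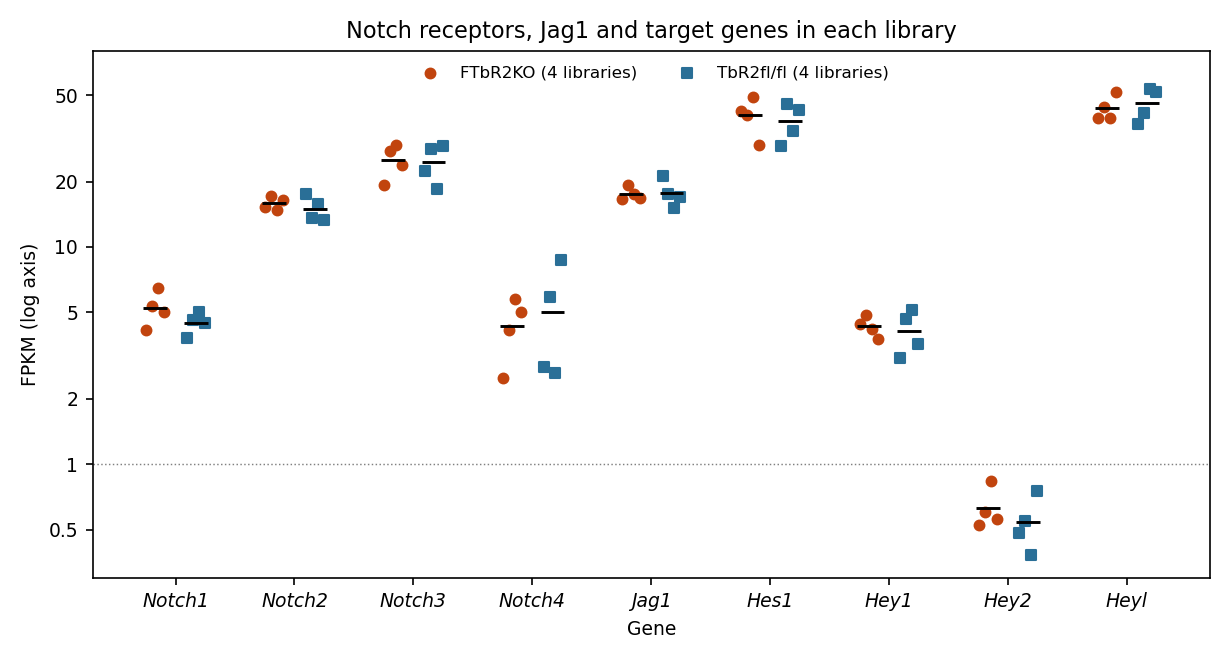
FPKM on a log axis for each of the 9 genes in the 4 libraries labelled FTbR2KO (circles) and the 4 TbR2fl/fl controls (squares), with bars at the group means and a dotted line at 1 FPKM. The groups overlap for every gene, and Hey2 alone stays under 1 FPKM in all 8 libraries.

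Notch3, on chromosome 17 from 32120820 to 32166880 on the minus strand, measured 19.3, 27.6, 29.6 and 23.8 FPKM in FTbR2KO 1 to 4, against 22.4, 28.3, 18.5 and 29.1 FPKM in TbR2fl/fl 5 to 8. The lowest library was TbR2fl/fl 7 and the highest FTbR2KO 3, and the groups lay on top of each other. The means were 25.1 ± 4.55 FPKM under the FTbR2KO label and 24.6 ± 5.04 FPKM in the controls (SD, n = 4 each), a log2 fold change of 0.03 (SE 0.17, limma adjusted p = 0.968). All fold changes are on the log2(FPKM + 1) scale, which understates the change of low genes. An antisense gene overlaps 6.03% of the exon bases of Notch3, and without strand its reads cannot be told apart.

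Notch2, a widely expressed receptor on chromosome 3 from 98013527 to 98150361 on the plus strand, varied least among the receptors. It measured 15.3, 17.2, 14.7 and 16.4 FPKM in the libraries labelled FTbR2KO, against 17.4, 13.6, 15.8 and 13.2 FPKM in the controls. The highest and the lowest value both came from controls. In limma the difference came to a log2 fold change of 0.09, with a 95% confidence interval of -0.14 to 0.31 (SE 0.10, adjusted p = 0.821). A gene annotated on the same strand covers 5.02% of its exon bases.

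Notch1, the best studied receptor of the family, lies on chromosome 2 from 26457903 to 26516663 on the minus strand. It measured 4.13, 5.33, 6.48 and 5.02 FPKM in the libraries labelled FTbR2KO, against 3.80, 4.59, 5.02 and 4.49 FPKM in the controls. The 2 highest values came from FTbR2KO 3 and 2, but FTbR2KO 1 lay below 3 of the 4 controls. Means of 5.24 ± 0.970 FPKM under the FTbR2KO label and 4.48 ± 0.507 FPKM in the controls gave a log2 fold change of 0.18 (SE 0.12, 95% confidence interval -0.09 to 0.45), with the smallest limma adjusted p of the listed genes, 0.682 (exact permutation p = 0.257). Genes on the other strand overlap 9.76% of its exon bases.

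Notch4, on chromosome 17 from 34564268 to 34588503 on the plus strand, varied most. It measured 2.49, 4.13, 5.74 and 5.00 FPKM in the libraries labelled FTbR2KO, against 2.82, 5.88, 2.64 and 8.69 FPKM in the controls. The highest library, TbR2fl/fl 8, had 3.49 times the level of the lowest, FTbR2KO 1, and the controls alone spanned almost the whole range. The counts behind these values were 348 to 1993 reads per library. FTbR2KO 1 was also the shallowest library, at 16088616 reads, and TbR2fl/fl 8 the deepest, at 28731923. Beside depth Notch4 gave r = 0.526 (exact permutation p = 0.174, adjusted p = 0.741) and rho = 0.69 (exact permutation p = 0.0694, adjusted p = 0.625). The part of depth in the Notch4 level was not tested. The log2 fold change of -0.09 had the widest interval of the listed genes, -0.83 to 0.65 (SE 0.33, limma adjusted p = 0.954), so its difference is the least precisely known of the 8.

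Of the summed FPKM of the 4 receptors, Notch3 made up 49.3 ± 2.71% in the libraries labelled FTbR2KO and 49.7 ± 4.49% in the controls (SD, n = 4 each). Notch2 made up 31.9 ± 4.56% under the FTbR2KO label and 31.2 ± 7.39% in the controls. For Notch1 it was 10.3 ± 0.762% under the FTbR2KO label and 9.26 ± 1.85% in the controls, and for Notch4 8.44 ± 1.98% under the FTbR2KO label and 9.81 ± 4.57% in the controls. Notch3 exceeded Notch2, and Notch2 exceeded Notch1, in 8 of 8 libraries. Notch1 exceeded Notch4 in 6 of 8, and the exceptions were TbR2fl/fl 6 and 8. The summed receptor level was 41.2 to 56.5 FPKM in the libraries labelled FTbR2KO and 41.9 to 55.5 FPKM in the controls.

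**Figure D2:**
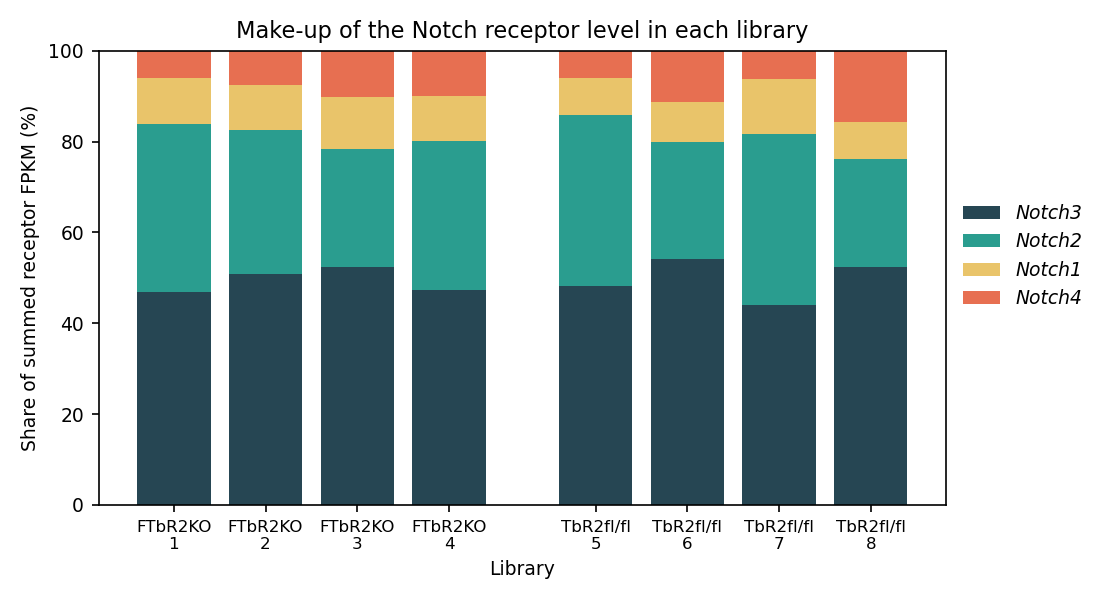
Share of the summed receptor FPKM held by each Notch receptor, in percent, with 1 stacked bar per library, FTbR2KO 1 to 4 left and TbR2fl/fl 5 to 8 right. Notch3 holds 44.0% to 54.1% in every bar, and the Notch4 share is highest in TbR2fl/fl 8, at 15.7%.

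Jag1 encodes a membrane-bound Notch ligand and lies on chromosome 2 from 137081456 to 137116644 on the minus strand. It measured 16.6, 19.2, 17.6 and 16.8 FPKM in the libraries labelled FTbR2KO, against 21.2, 17.6, 15.2 and 16.9 FPKM in the controls. The controls held both extremes, TbR2fl/fl 5 at the top and TbR2fl/fl 7 at the bottom. Means of 17.5 ± 1.18 FPKM under the FTbR2KO label and 17.7 ± 2.53 FPKM in the controls gave a log2 fold change of -0.0055 (SE 0.10, 95% confidence interval -0.24 to 0.23; limma adjusted p = 0.993). The other 6 ligand genes examined (Jag2, Dll1, Dll3, Dll4, Dlk1 and Dner) stayed under 1 FPKM in all 8 libraries. Dll1, a Delta ligand, reached at most 0.355 FPKM, Dll4, the Delta ligand best known from arteries, at most 0.301 FPKM, and Jag2 at most 0.0992 FPKM. Jag1 was thus the single ligand of the 7 above 1 FPKM.

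Hes1 encodes a repressor that is a direct Notch target in many tissues and also answers to other signals. It lies on chromosome 16 from 30064384 to 30067796 on the plus strand. The gene measured 42.2, 40.5, 49.2 and 29.4 FPKM in the libraries labelled FTbR2KO, against 29.2, 45.7, 34.1 and 42.7 FPKM in the controls. Each genotype held 1 library near 29 FPKM and 1 above 45 FPKM. In limma the difference came to a log2 fold change of 0.09, with a 95% confidence interval of -0.33 to 0.50 (SE 0.18, adjusted p = 0.914).

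Heyl encodes a Hey-type repressor known from smooth muscle as a target of Notch3, and lies on chromosome 4 from 123233556 to 123249875 on the plus strand. It measured 39.4, 44.2, 39.2 and 51.6 FPKM in the libraries labelled FTbR2KO, against 36.7, 41.2, 53.6 and 51.6 FPKM in the controls. High and low values were shared between genotypes, and FTbR2KO 4 lay level with TbR2fl/fl 8. In limma the difference came to a log2 fold change of -0.06, with a 95% confidence interval of -0.39 to 0.26 (SE 0.14, adjusted p = 0.926). Heyl exceeded Hes1 in 5 of 8 libraries, so the order of the 2 leading targets depended on the library.

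Hey1, a repressor with a role in arterial and valve development, lies on chromosome 3 from 8663359 to 8667256 on the minus strand. It measured 4.41, 4.86, 4.20 and 3.77 FPKM in the libraries labelled FTbR2KO, against 3.10, 4.66, 5.13 and 3.59 FPKM in the controls. All values of the libraries labelled FTbR2KO lay inside the range of the controls. In limma the difference came to a log2 fold change of 0.07, with a 95% confidence interval of -0.23 to 0.36 (SE 0.13, adjusted p = 0.902).

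Hey2, known from ventricular muscle and arterial endothelium, lies on chromosome 10 from 30832359 to 30842801 on the minus strand. It was too low for the fit across genes, at 0.527, 0.601, 0.837 and 0.562 FPKM in the libraries labelled FTbR2KO, against 0.482, 0.547, 0.383 and 0.750 FPKM in the controls. These values rest on 36 to 98 reads per library. The lowest library was a control and the highest FTbR2KO 3, with the groups overlapping. The means were 0.632 ± 0.140 FPKM under the FTbR2KO label and 0.540 ± 0.155 FPKM in the controls (SD, n = 4 each; exact permutation p = 0.400).

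In both genotypes the order of mean levels ran from Heyl, Hes1, Notch3, Jag1 and Notch2 down to Notch1 and Notch4, then Hey1 and last Hey2. Notch1 and Notch4 changed places between genotypes, and their ranges over libraries overlapped in each. The ranges also overlapped between Heyl and Hes1, between Jag1 and Notch2, and between Hey1 and the receptor above it. Gaps without overlap in both genotypes lay between Notch2 and the next receptor and between Hey1 and Hey2. Notch3 exceeded Jag1 in 8 of 8 libraries, although in the controls their ranges overlapped.

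The genotype comparison sets cells meant to lack TbR2 beside cells that keep it. Of the 8 listed genes tested, 0 passed an adjusted p of 0.05 in limma, against 0.0171% of all 11667 tested genes. None passed at an unadjusted p under 0.05 either, against 8.61% of all tested genes, and for none did the groups lie apart, against 4.41%. The median log2 fold change of the 8 was 0.05, beside -0.0045 over all tested genes. Of the 8, 5 lay above 0 and 3 below, and when FPKM was converted to TPM all 8 lay above 0, where the median gene itself lay at 0.15. With array weights 3 of the 8 lay above 0. Apart from Notch4 and Hes1, every interval stayed within a log2 change of 0.45 in either direction.

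**Figure D3:**
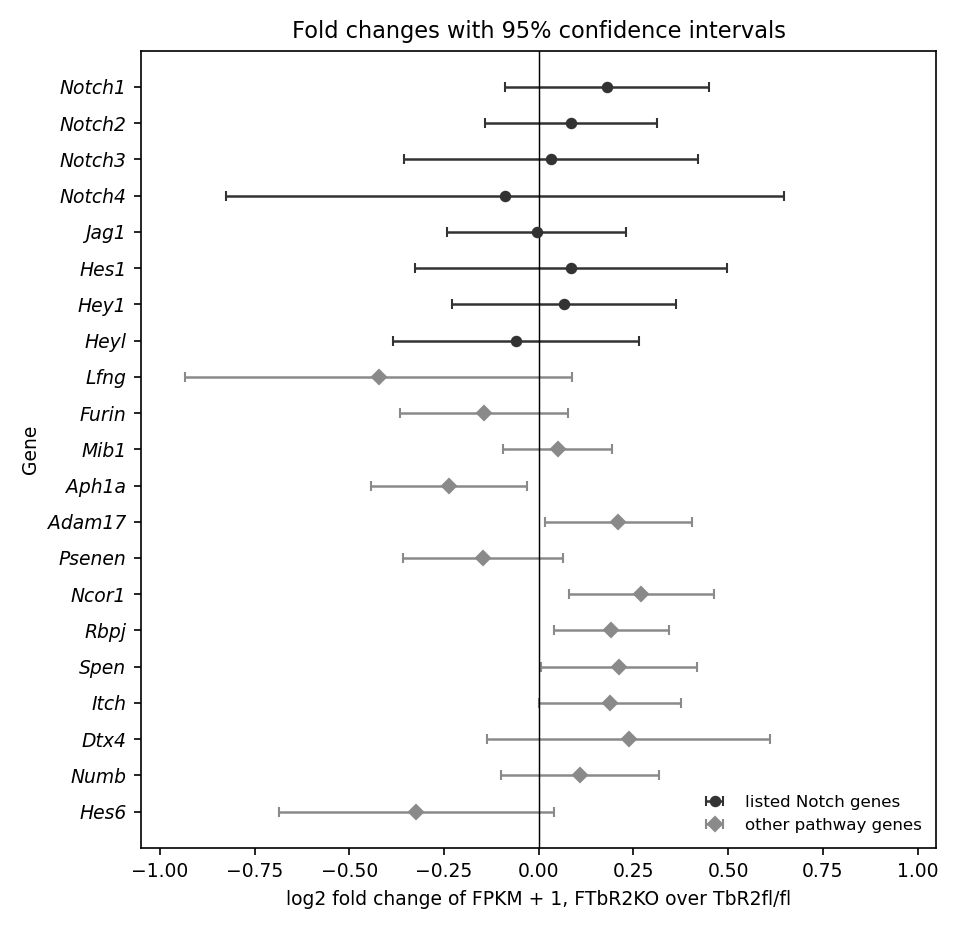
Log2 fold changes of FPKM + 1, FTbR2KO over TbR2fl/fl, with 95% confidence intervals from limma, for the 8 listed genes tested (circles) and 13 further pathway genes (diamonds). Every interval of a listed gene includes 0, and the widest belongs to Notch4, from -0.83 to 0.65.

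The rest of the pathway was examined through 47 genes in 6 groups, of which 33 were tested and 14 stayed under 1 FPKM throughout. None of the 33 passed after adjustment in limma, where the smallest value was an adjusted p of 0.571. Before adjustment, 5 were higher and 1 was lower in the libraries labelled FTbR2KO at a p under 0.05, or 18.2% of the 33, beside 8.61% of all tested genes. The groups lay apart for 2 of them, or 6.06%, beside 4.41%. The median log2 fold change of the 33 was 0.02.

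The nuclear complex and its co-repressors, 9 genes all tested, had 8 log2 fold changes above 0. Their median was 0.11, beside -0.0045 over all tested genes. In the alternatives, which reuse the same libraries, 7 to 9 of the 9 were above 0, or 7 of 7 under the filter of 5 FPKM. As TPM all 9 were above 0 and 8 were above the median gene, itself at 0.15. Rbpj, the DNA-binding partner of every Notch receptor, measured 8.00, 7.20, 7.51 and 7.12 FPKM in the libraries labelled FTbR2KO, against 6.26, 6.06, 6.86 and 6.43 FPKM in the controls. Every FTbR2KO-labelled value exceeded every control value. The log2 fold change was 0.19 (SE 0.068, limma adjusted p = 0.571; exact permutation p = 0.0286, the smallest this design allows), so Rbpj did not pass. Ncor1, a nuclear co-repressor, measured 12.2 ± 0.757 FPKM under the FTbR2KO label and 9.92 ± 0.999 FPKM in the controls (log2 change 0.27 with SE 0.085; adjusted p = 0.571 by limma). Spen, a co-repressor that binds RBPJ, had a log2 fold change of 0.21 (SE 0.092, limma adjusted p = 0.580). None of the 3 coactivators of the Maml family was among the genes at an unadjusted p under 0.05.

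Of the 9 receptor cleavage genes 8 were tested, with 5 above 0, 3 below and a median of 0.02. Adam17, a membrane protease that can cut Notch, measured 16.9, 17.5, 15.2 and 13.8 FPKM in the libraries labelled FTbR2KO, against 14.1, 13.2, 13.8 and 13.0 FPKM in the controls. FTbR2KO 4 lay among the controls and the other three above them (log2 change 0.21 with SE 0.086; adjusted p = 0.571 by limma). Aph1a, a subunit of γ-secretase, measured 16.6, 17.6, 19.0 and 18.3 FPKM in the libraries labelled FTbR2KO, against 20.5, 21.2, 19.0 and 24.5 FPKM in the controls. Its groups lay apart by the small gap between FTbR2KO 3 and TbR2fl/fl 7 (log2 change -0.24 with SE 0.091; adjusted p = 0.571 by limma), and a gene on the other strand, Car14, covers 12.9% of its exon bases. Psenen, another γ-secretase subunit that shares 9.33% of its exon bases with overlapping genes, had a log2 fold change of -0.15 (SE 0.094, limma adjusted p = 0.665).

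Among 8 genes of receptor glycosylation and trafficking 7 were tested, with 1 above 0 and 6 below and a median of -0.03. Lfng, the Fringe enzyme that alters which ligands a Notch receptor answers to, measured 5.13, 4.02, 5.27 and 8.86 FPKM in the libraries labelled FTbR2KO, against 7.08, 8.97, 5.56 and 10.6 FPKM in the controls. FTbR2KO 1 to 3 lay below all controls and FTbR2KO 4 among them (log2 fold change -0.42, SE 0.23, 95% confidence interval -0.93 to 0.09; limma adjusted p = 0.618). Furin, the protease that cuts the receptor during maturation, came to -0.14 on the log2 scale (SE 0.098), and Mib1, a ubiquitin ligase for ligands, 0.05 (SE 0.064). Of the 10 inhibitors and turnover genes 8 were tested, 5 above 0 and 3 below, with a median of 0.05. Itch, a ubiquitin ligase that acts on Notch, had a log2 fold change of 0.19 (SE 0.083, limma adjusted p = 0.581), Dtx4 of the Deltex family 0.24 (SE 0.17) and Numb, an inhibitor of Notch, 0.11 (SE 0.093). Nrarp, a feedback inhibitor and common readout of Notch activity named here after its values were seen, reached at most 0.492 FPKM. Of the 5 other Hes genes Hes6 alone was tested, at 6.41 ± 1.73 FPKM under the FTbR2KO label and 8.13 ± 1.07 FPKM in the controls (log2 change -0.32 with SE 0.16; adjusted p = 0.599 by limma).

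Notch3, Notch4 and Hey2 had similar orders over the libraries, across genotype, in relations that did not pass after adjustment. FTbR2KO 3 and TbR2fl/fl 8 had the 2 highest Notch3 and Hey2 levels, and FTbR2KO 1 and TbR2fl/fl 7 the 2 lowest Notch3 and Notch4 levels. Over the 8 libraries Notch3 and Notch4 gave Pearson's r = 0.817 (exact permutation p = 0.0128) and Spearman's rho = 0.881 (exact permutation p = 0.00724). Pearson's r was 0.839 without the 2 libraries farthest from the Notch4 median, FTbR2KO 1 and TbR2fl/fl 8. For Notch3 and Hey2, whose promoters are printed above, r was 0.816 (exact permutation p = 0.0107) and rho 0.905 (exact permutation p = 0.00456), and r was 0.748 without FTbR2KO 3 and TbR2fl/fl 8. All 36 pairs of the 9 genes were computed, after the levels had been seen. After Benjamini-Hochberg adjustment neither relation passed (exact permutation tests, adjusted p = 0.230 for r in both and 0.130 for rho in both), and 0 of the 36 pairs did. Of the unadjusted tests 4 gave a p under 0.05 by Pearson's r and 3 by Spearman's rho. The better expressed target genes did not all go with Notch3. Beside it Heyl gave r = -0.123 and rho = -0.167, and Hey1 gave r = -0.145 and rho = -0.286. Hes1 gave r = 0.599 and rho = 0.714. Each genotype has 4 libraries, too few for a correlation, so none was computed within a genotype, and the labels give no batch.

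Mural markers were set beside Notch3, as background the receptor of those cells. The summed FPKM of 9 mural markers was 41.2, 75.8, 67.2 and 52.0 in the libraries labelled FTbR2KO, against 49.6, 52.4, 46.6 and 61.6 in the controls (exact permutation p = 0.486 between genotypes), led by Rgs5 (12.9 to 32.3 FPKM), Mcam (5.67 to 19.1 FPKM) and Des (5.10 to 8.86 FPKM). Beside Notch3 the sum gave r = 0.786 (exact permutation p = 0.0217) and rho = 0.833 (exact permutation p = 0.0154), and r = 0.869 without FTbR2KO 2 and 3. Adjusted over the 45 relations between a listed gene and a marker sum, p was 0.229 for r and 0.231 for rho (exact permutation), and 0 of the 45 passed. The members of the list did not all share this order: Abcc9, a channel subunit of pericytes, was highest in FTbR2KO 1 at 7.68 FPKM, where Notch3 was next to lowest. Vtn measured 1.90 FPKM in FTbR2KO 1 and 2.05 FPKM in TbR2fl/fl 7, with 0.986 FPKM in TbR2fl/fl 8, where Notch3 was next to highest. The cardiomyocyte sum, though low, gave a similar relation, with r = 0.828 beside Notch3 (exact permutation p = 0.00881, adjusted p = 0.132), r = 0.702 without FTbR2KO 1 and TbR2fl/fl 7, and rho = 0.762 (exact permutation p = 0.0368, adjusted p = 0.331). None of the 9 mural markers was at 0 in any library, and all reached 1 FPKM in at least 1. The part of mural cells in the Notch3 level was not tested. The part of cardiomyocytes, endothelial cells and leukocytes in these relations and those that follow was not tested either.

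**Figure D4:**
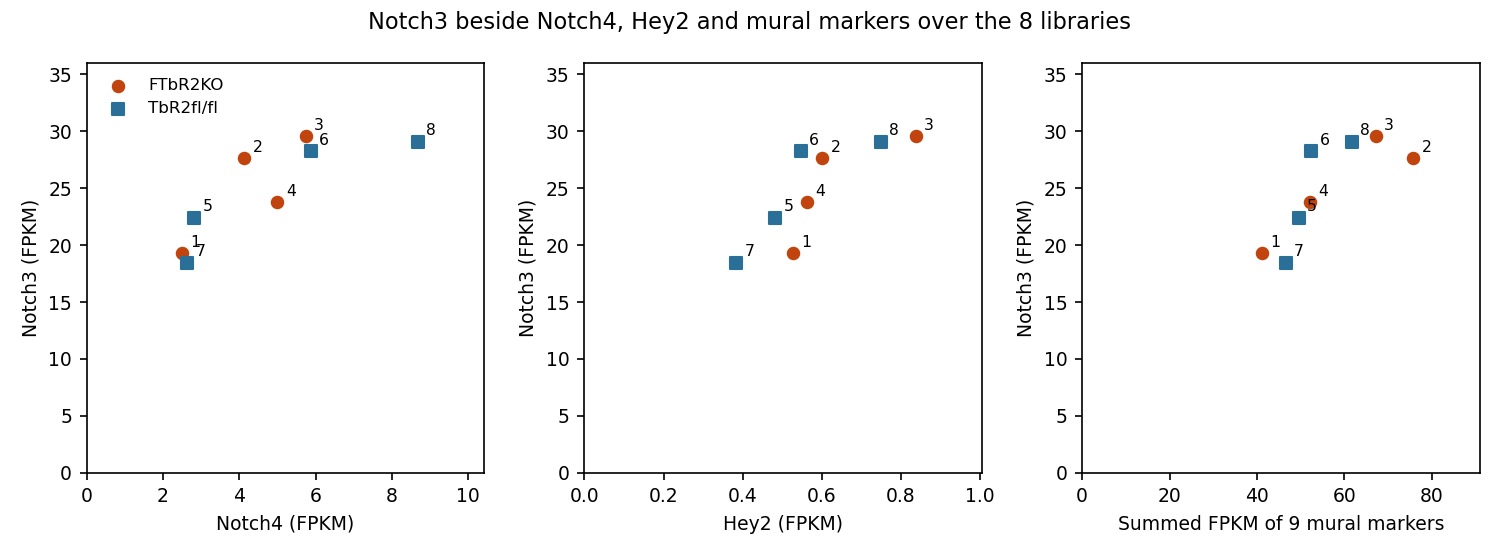
Notch3 FPKM on each vertical axis against Notch4 FPKM, Hey2 FPKM and the summed FPKM of 9 mural markers on the horizontal axes, 1 point per library, labelled by its number (circles FTbR2KO, squares TbR2fl/fl). Points of both genotypes mix in each panel, with Pearson's r of 0.817, 0.816 and 0.786, none of which passed after adjustment.

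Endothelial markers other than Tek were low. Of 10 markers 6 stayed under 1 FPKM in all libraries, Cdh5, which encodes the adhesion protein of endothelial junctions, lay at 0.123 to 1.10 FPKM and Pecam1 at 0.425 to 1.17 FPKM. Notch4 exceeded Cdh5 in 8 of 8 libraries and Pecam1 in 8 of 8. Like Notch4 (2.49 and 8.69 FPKM), Cdh5, Tie1, Emcn and Vwf were lowest in FTbR2KO 1 and highest in TbR2fl/fl 8. FTbR2KO 1 was the shallowest library and TbR2fl/fl 8 the deepest. Cdh5 rested on 9 to 132 reads per library, Tie1 on 5 to 60, Emcn on 3 to 31 and Vwf on 18 to 120. Pecam1, Kdr, Tek, Cldn5, Egfl7 and Esam did not share both extremes. The part of endothelial cells in the Notch4 level was not tested. Tek, an angiopoietin receptor on the same list, lay at 15.1 to 26.8 FPKM and made up most of the list's sum. That sum was 21.0 to 27.5 FPKM in the libraries labelled FTbR2KO and 20.2 to 29.9 FPKM in the controls, and it was inversely related to Notch3 without passing after adjustment (r = -0.904, exact permutation p = 0.00382, adjusted p = 0.132; rho = -0.857, exact permutation p = 0.0107, adjusted p = 0.231; r = -0.965 without FTbR2KO 4 and TbR2fl/fl 7). The same endothelial sum was also inversely related to Notch4, again without passing. There r was -0.729 (exact permutation p = 0.0373, adjusted p = 0.280) and rho was -0.81 (exact permutation p = 0.0218, adjusted p = 0.245). Other endothelial markers did not share Tek's order. Cdh5 was lowest in FTbR2KO 1 at 0.123 FPKM and highest in TbR2fl/fl 8 at 1.10 FPKM. Emcn had the same extremes, at 0.0320 and 0.201 FPKM. Leukocyte markers summed to 7.26 to 10.4 FPKM under the FTbR2KO label and 7.75 to 10.2 FPKM in the controls, led by Lyz2, Cd68 and C1qa, with Itgam at 0 in 6 libraries and Ptprc in 2. The leukocyte sum was inversely related to Heyl, likewise without passing (r = -0.915, exact permutation p = 0.00687, adjusted p = 0.132; rho = -0.667, exact permutation p = 0.0831, adjusted p = 0.340; r = -0.870 without FTbR2KO 4 and TbR2fl/fl 7). Within that list Cd68 measured 7.15 FPKM in FTbR2KO 1 and 2.01 FPKM in TbR2fl/fl 8, where Heyl was 39.4 and 51.6 FPKM, while Lyz2 measured 2.45 and 4.78 FPKM in the same libraries, the other way round. Cardiomyocyte markers summed to 2.71 to 5.18 FPKM under the FTbR2KO label and 3.80 to 5.02 FPKM in the controls, led by Actc1, Tnnt2 and Tnni3, with none at 0.

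The 3 protein-coding genes closest to a listed gene in pattern were found for the leading receptor, the ligand and the leading target. Likeness was the root mean square difference of standardized log2(FPKM + 1) over the 8 libraries, 0 for identical patterns. Among 10619 genes the closest to Notch3 were Ammecr1 (0.217), Asb5 (0.232) and Plscr2 (0.239), where the median gene stood at 1.28. Plscr2 measured 5.13, 7.73, 8.83 and 6.63 FPKM in the libraries labelled FTbR2KO, against 5.62, 7.86, 5.44 and 8.29 FPKM in the controls. Its likeness to Notch3 restates how it was chosen. How close the nearest of 10619 genes would lie by chance was not tested. Closest to Heyl were Sipa1 (0.200), Exosc8 (0.227) and Mrpl43 (0.250), with the median gene at 1.25. For Jag1 they were 4931406P16Rik (0.272), Zc3hav1l (0.306) and Pkdcc (0.311), with the median gene at 1.38.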

How the data were processed

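RNA sequencing of 8 sorted fibroblast samples was analysed, 4 labelled FTbR2KO and 4 TbR2fl/fl. Per the labels' protocols, Trizol RNA was enriched for poly(A) and prepared with NEBNext Ultra reagents. The authors deposited gene-level FPKM. HTSeq 0.6.1, TopHat2 2.0, CASAVA and Cufflinks 2.1.1 are listed without roles per the submitters' processing notes, as are the builds GRCm38.p6 and mm10. Whether counting used strand is not stated there. FPKM times gene length was a whole multiple of 1 step per library for 100% of values (tolerance 0.01), which gave the reads.

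Genes with at least 1 FPKM in at least 4 of the 8 libraries (11667) were compared as log2(FPKM + 1) in limma 3.58.1 (R 4.3.3) with trended empirical Bayes variance and no covariate, two-sided, at a Benjamini-Hochberg adjusted p of 0.05. Single values had exact two-sided permutation tests, with a smallest p of 0.0286 between genotypes. The fit was tested on simulated reads with known changes larger than those of the listed genes. That test does not speak to differences as small as theirs. Named genes are the 9 members, Tgfbr2, up to 3 genes per pathway list by smallest p, the closest patterns and leading or absent markers; other genes are named by level. Members and lists were chosen with earlier results of these data known. Coordinates are those of the deposited table, overlaps those of GENCODE M21. The 17 alternatives are given at the end.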

Additional observations from a re-analysis of the deposited data

Results flagged for a closer look

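Of 56 sets of 4 libraries examined for 1 library far from the other three, 2 were flagged, where chance flags about 1 in 20. Spen stood at 5.92 FPKM in FTbR2KO 2, with the others labelled FTbR2KO at 5.54 to 5.57 FPKM. The summed leukocyte markers stood at 7.26 FPKM in FTbR2KO 4, with the others of that label at 10.1 to 10.4 FPKM. Neither concerns a listed Notch gene.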

How the results depend on the processing

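No listed Notch gene and no named pathway gene passed the threshold in any of the 17 alternatives, the smallest limma adjusted p being 0.157 (array weights). Over all genes 2 passed in the fit reported, 1 under a filter of 5 FPKM and 2 to 8 when 1 library was left out, the 8 without FTbR2KO 4. Over the 8 listed genes 27 of 135 values changed sign, none of them for Notch1 or Notch2; the cause was not tested. Leaving out 1 library gave log2 fold changes of 0.089 (without FTbR2KO 3) to 0.27 for Notch1, 0.032 (without TbR2fl/fl 8) to 0.16 for Notch2, -0.091 to 0.15 for Notch3, -0.29 to 0.18 for Notch4, -0.073 to 0.079 for Jag1, -0.030 to 0.23 for Hes1, -0.034 to 0.16 for Hey1 and -0.16 to 0.019 for Heyl. As TPM, where the median gene lay at 0.15, the values were 0.36 for Notch1, 0.25 for Notch2, -0.080 for Aph1a, 0.062 for Notch4, 0.16 for Jag1, 0.10 for Heyl, 0.016 for Furin and 0.014 for Psenen, and 0.12 for the log2 ratio of summed cardiomyocyte markers. Among pathway genes, leaving out 1 library gave 0.13 to 0.37 for Dtx4, 0.057 to 0.17 for Numb, 0.024 to 0.072 for Mib1, -0.20 to -0.084 for Furin and -0.46 to -0.19 for Hes6. With array weights the values were -0.0091 for Notch3, 0.041 for Jag1, -0.046 for Hes1 and -0.0038 for Hey1. Jag1 lay at 0.014 after quantile normalization, at 0.00067 with voom on recovered reads and at 0.10 without FTbR2KO 1 and TbR2fl/fl 5, where Hes1 lay at -0.060 and Hey1 at -0.044. The relations of Notch3, with alternatives chosen after seeing the data, ran from 0.774 to 0.877 with Notch4, 0.728 to 0.902 with Hey2 and 0.712 to 0.881 with the mural sum when 1 library was left out. No paired analysis was possible because the groups share no replicate numbers. Hey2 rests on 36 to 98 reads per library, and 4 samples per group limit all intervals.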
